A study of Homo sapiens with 10 samples.

Results

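Promoter flanks are the stretches of chromatin just outside a gene's start, here from 1 to 3 kb away from it on either side. H3K27ac ChIP-seq regions were taken as flanks where the deposited annotation put them at 1 to 2 kb or at 2 to 3 kb from the nearest transcription start site (TSS), and as promoter cores where it put them within 1 kb. Of 169637 regions of 502 bp in the series, 67387 carried an annotation, and 6548 of these were flanks, 3786 at 1 to 2 kb and 2762 at 2 to 3 kb. The flanks belonged to 3679 genes. The 24296 cores belonged to 12295 genes. Both kinds of region were present at 3078 genes, with 5690 flanks and 8548 cores, and the other 601 genes had 858 flanks and no core.

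All libraries came from H1975, an established lung adenocarcinoma cell line with mutant EGFR, so every result below is for 1 cell line. DMSO controls grew for 21 days in medium without drug and for a further 3 days with DMSO. Osimertinib DTPs, drug-tolerant persister cells that survive long exposure to the EGFR kinase inhibitor osimertinib, were kept at 500 nM osimertinib for 24 days. The sequential combination, osimertinib DTP + AZD5153, had 21 days at 500 nM osimertinib and then 3 days at 150 nM AZD5153, an inhibitor of the BET family of bromodomain proteins. The labels do not say whether osimertinib stayed in the medium during those 3 days. Each group had 3 libraries from what the labels call biological triplicates, and 1 pooled input library was made without immunoprecipitation.

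H3K27ac is the acetylation of lysine 27 of histone H3, a mark laid down by the acetyltransferases p300 and CBP at active promoters and enhancers. At an active gene the mark covers the nucleosomes beside the TSS and may reach into the flank, and a region in a flank may also be a separate regulatory element close to the gene. BET proteins bind acetylated histone tails through their bromodomains, and BET inhibitors such as AZD5153 displace them from chromatin without being inhibitors of the acetyltransferases.

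The libraries differed in depth and in how much of their signal lay in cores. Total counts over all regions ran from 6263443 to 10463351 in the 9 H3K27ac libraries. Cores took 29.3% to 34.8% of the counts in 7 libraries, but 50.8% in osimertinib DTP replicate 2 and 52.9% in osimertinib DTP + AZD5153 replicate 3. Flanks took 5.19% to 6.46% of the counts. Between libraries of 1 group the Spearman coefficient over the flanks was 0.809 to 0.890 in DMSO and 0.756 to 0.763 in osimertinib DTP, while osimertinib DTP + AZD5153 replicate 3 stood apart from replicates 1 and 2 of its group at 0.442 and 0.360. All 7 epithelial marker genes examined (among them EPCAM and KRT8) had a core, with mean levels in DMSO of 9.04 to 63.0 CPM, reads scaled to a common library size, and none of 5 markers of blood, endothelial and liver cells did. Counts of calls and flank shares are given with and without both osimertinib DTP replicate 2 and osimertinib DTP + AZD5153 replicate 3. Core levels, core medians and medians by distance are given only with both.

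The DNA at the start sites of 4 genes whose flanks are described below is shown to place the flanks against sequence. RefSeq sequences of assembly GRCh38.p14 cover 250 bases before to 50 bases after an annotated start and are written 5′ to 3′ along the gene, with each CpG dinucleotide in capitals. PHLDA1 (chr12:76031727-76032026, minus strand) and CCDC126 (chr7:23597132-23597431, plus strand) have 32 and 30 CpG dinucleotides, and a core region overlapped each window. PLA2G2F (chr1:20139073-20139372, plus strand) and AKR1D1 (chr7:138076209-138076508, plus strand) have 4 and 1, and neither gene had a core region.
PHLDA1: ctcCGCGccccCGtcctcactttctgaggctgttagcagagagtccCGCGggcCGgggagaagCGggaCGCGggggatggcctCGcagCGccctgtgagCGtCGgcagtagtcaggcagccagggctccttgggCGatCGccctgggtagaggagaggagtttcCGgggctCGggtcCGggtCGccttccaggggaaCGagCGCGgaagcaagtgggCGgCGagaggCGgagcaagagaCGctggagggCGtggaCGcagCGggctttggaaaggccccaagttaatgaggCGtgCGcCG
CCDC126: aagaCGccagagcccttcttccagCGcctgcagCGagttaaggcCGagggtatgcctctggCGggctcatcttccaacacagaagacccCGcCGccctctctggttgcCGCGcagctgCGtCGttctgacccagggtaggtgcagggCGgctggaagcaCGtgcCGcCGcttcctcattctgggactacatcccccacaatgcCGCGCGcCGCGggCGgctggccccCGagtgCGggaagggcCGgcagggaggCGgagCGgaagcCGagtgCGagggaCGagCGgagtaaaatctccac
PLA2G2F: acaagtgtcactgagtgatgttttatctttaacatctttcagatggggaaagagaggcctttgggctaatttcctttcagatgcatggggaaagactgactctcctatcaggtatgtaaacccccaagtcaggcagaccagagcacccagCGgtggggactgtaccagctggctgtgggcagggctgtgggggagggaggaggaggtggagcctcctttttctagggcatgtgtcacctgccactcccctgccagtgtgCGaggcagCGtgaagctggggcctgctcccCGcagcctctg
AKR1D1: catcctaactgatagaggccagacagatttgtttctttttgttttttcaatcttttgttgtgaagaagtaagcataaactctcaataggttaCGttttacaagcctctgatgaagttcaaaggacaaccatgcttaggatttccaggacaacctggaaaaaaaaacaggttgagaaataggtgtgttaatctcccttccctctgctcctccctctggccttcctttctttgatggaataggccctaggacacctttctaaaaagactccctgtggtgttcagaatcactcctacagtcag
The flanks of these genes lay outside the windows, with 2158 bases between window and flank at PHLDA1, 1395 at CCDC126, 1364 at PLA2G2F and 1310 at AKR1D1. Of all 35116 such windows in the RefSeq table, the median CpG count was 14. Windows were matched for fewer than 80% of the genes with a flank (79.7% of those with a core and 61.1% of those without), so a comparison of promoter sequence between these gene classes is void and is not given.

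Flanks carried less H3K27ac than cores, and their typical level stayed near that of DMSO in both treated groups. The median level per region, in CPM after TMM scaling (the trimmed mean of M-values, which sets libraries to a common scale), was 6.35 for flanks of DMSO cells, against 6.29 for osimertinib DTP and 6.46 for the combination with AZD5153. For cores it was 10.1, 12.5 and 12.9. Flanks had a median of 64.7 counts per DMSO library and of 12 counts in the input. By distance, the median log2 fold change of osimertinib DTP over DMSO reached 0.42 in the bin just downstream of the TSS and lay between -0.07 and 0.15 in the 250 bp bins of the flanks. At the edges of the class, regions at 901 to 1000 bp had a median of 5.86 CPM in DMSO and flanks at 1001 to 1100 bp 6.13 CPM, and flanks at 2901 to 3000 bp had 6.91 CPM against 6.30 CPM for regions at 3001 to 3100 bp.

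More flanks lay downstream of the TSS than upstream of it (3675 against 2873, or 56.1% downstream). Of the 24296 cores 24.1% lay downstream, but 12374 had a distance of 0 to the TSS and so no side. Genes with a flank and no core were of another kind by RefSeq gene type. Of the genes with both, 87.3% were protein coding, 9.88% were lncRNA genes and 1.59% were miRNA genes. Of the genes with a flank alone, 62.0% were protein coding, 23.2% lncRNA and 11.3% miRNA.

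In osimertinib DTP, 452 flanks rose and 482 fell against DMSO. Among those that rose the most were flanks of ASB18, an adaptor of the SOCS box family of ubiquitin ligases, of MAP2, a microtubule protein of neurons, of CYP4B1, a lung cytochrome P450, and of NPR3, the clearance receptor for natriuretic peptides. The most strongly lowered flanks were those of KIF1A, a kinesin that carries synaptic vesicle precursors, of the long noncoding RNA gene LINC02053, of PLA2G2F, a secreted phospholipase A2, and of SNORD114-31, a small nucleolar RNA gene of the imprinted cluster on chromosome 14. In such bulk samples, fewer cells that carry the mark and less mark per cell cannot be told apart. The log2 fold changes of the flanks called ran from 1.64 to 6.65 in size. Calls are by edgeR's quasi-likelihood test with Benjamini-Hochberg adjustment over 157919 regions at 0.05. They took in 6.90% and 7.36% of the flanks, beside 5.58% and 5.13% of all regions tested, 2.78% and 1.85% of cores, and 10.1% and 9.82% of intronic regions. The median log2 fold change was 0.04 in flanks, 0.35 in cores and 0.15 in all regions. The core median includes osimertinib DTP replicate 2, whose counts lay more in cores.

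The flank of ASB18 at chr2:236239685-236240186, 1334 bp downstream of a TSS, held 0.453, 0.207 and 0.201 CPM in the DMSO libraries and 15.5, 42.3 and 33.8 CPM in osimertinib DTP. Signal was thus close to nil in DMSO and well above the median flank in every osimertinib DTP library, at a gene without a core. The log2 fold change was 6.65 ± 0.75 (SE, n = 3 per group, edgeR adjusted p = 0.00273). The flank of NPR3 at chr5:32691568-32692069 held 0.181, 0.723 and 0.201 CPM in DMSO and 18.7, 14.5 and 16.5 CPM in osimertinib DTP, a log2 fold change of 5.46 ± 0.82 (adjusted p = 0.00292). The groups did not overlap, and the DMSO libraries of NPR3 held 2, 7 and 2 counts. At MAP2 (chr2:209425776-209426277) the DMSO libraries held 0.363, 0.207 and 0.101 CPM and those of osimertinib DTP 7.65, 10.7 and 19.4 CPM, and at CYP4B1 (chr1:46803948-46804449) 0.272, 0 and 0.302 CPM against 2.49, 13.6 and 15.3 CPM. The log2 fold changes were 5.72 ± 0.96 and 5.65 ± 0.97. Both rises rested on groups that did not overlap but whose osimertinib DTP libraries differed widely among themselves.

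Among the flanks that fell, that of KIF1A (chr2:240739403-240739904) held 5.53, 13.01 and 9.35 CPM in DMSO and 0.382, 0 and 0.201 CPM in osimertinib DTP, a log2 fold change of -5.38 ± 0.91 (edgeR adjusted p = 0.00371). The flank of PLA2G2F (chr1:20137207-20137708), 1618 bp upstream of the start printed above, went from 2.63, 11.4 and 6.74 CPM to 0.287, 0.139 and 0.403 CPM, or by -4.54 ± 0.80 on the log2 scale. DMSO replicate 1 had the lowest DMSO value at both genes, and it did so at 392 of the 482 flanks that fell (81.3%). LINC02053 (chr3:180410049-180410550) fell from 4.99, 7.02 and 5.03 CPM to 0.478, 0 and 0 CPM, and SNORD114-31 (chr14:100994575-100995076) from 4.53, 7.85 and 6.13 CPM to 0.765, 0 and 0 CPM. Of these 4 genes SNORD114-31 alone had a core, which went the same way, from 80, 186 and 105 counts to 3, 3 and 6. Without DMSO replicate 2 the adjusted p was 0.0600 for PLA2G2F, 0.0599 for LINC02053 and 0.0632 for SNORD114-31, and none of the 3 was then called.

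**Figure D1:**
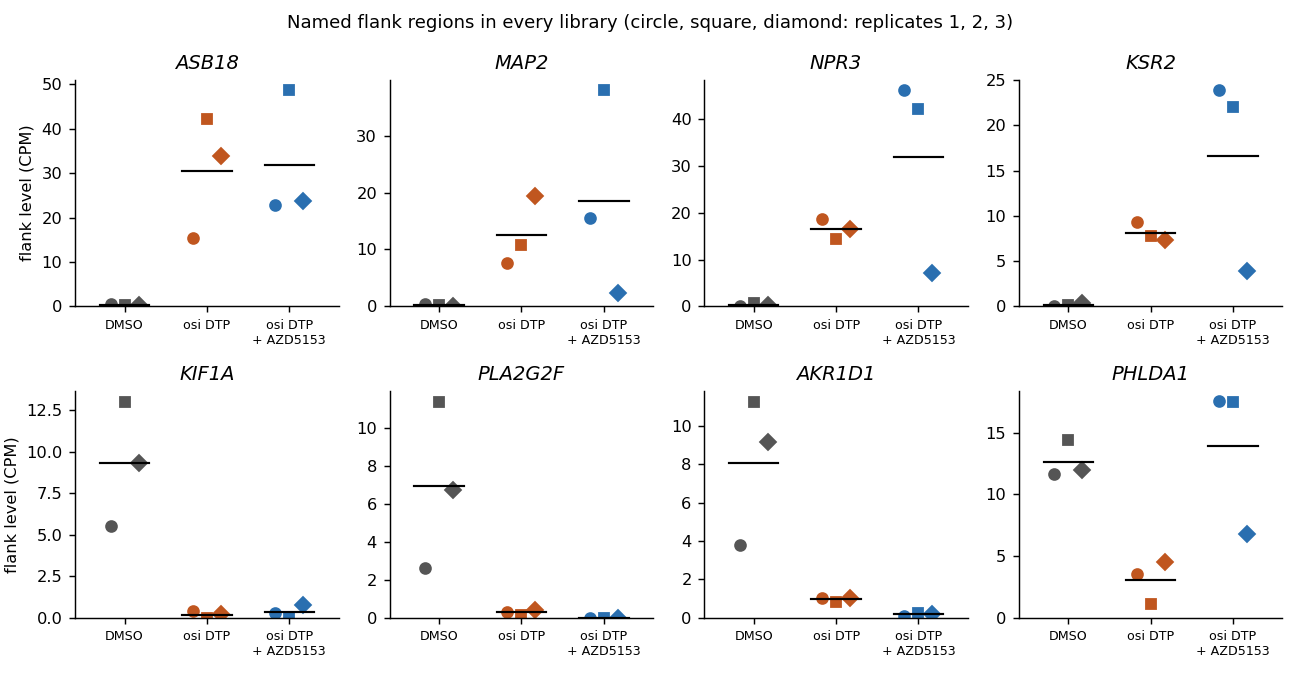
Level of 8 named flank regions (CPM after TMM scaling) in each of the 9 libraries; circles, squares and diamonds are replicates 1, 2 and 3, and bars are group means. ASB18, MAP2, NPR3 and KSR2 stand below 1 CPM in every DMSO library, and KIF1A and PLA2G2F stand below 1 CPM in every treated library. AKR1D1 steps down across the groups, and PHLDA1 is lowest in osimertinib DTP.

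Within ranges of level, flanks were called more often than cores. Of the 1637 flanks with the lowest mean level (up to 4.39 CPM), 7.88% were called higher and 14.7% lower, against 5.88% and 8.88% of the cores in that range. Of the 1637 between 6.50 and 10.97 CPM, 7.45% and 5.25% were called, against 3.02% and 1.99% of cores. Of the 1637 with the highest (above 10.97 CPM), 6.23% and 2.87% were called, against 1.70% and 0.376% of cores. That last range had no upper limit, with flanks up to 94.4 CPM and cores up to 128 CPM, so levels were not matched in it. Upstream and downstream flanks were called at similar rates, 7.31% and 7.76% upstream and 6.59% and 7.05% downstream. Flanks of genes without a core were called at 10.4% and 12.9%. Where the gene also had a core, at least 1 core was called in the same direction for 159 of 363 flanks that rose and for 141 of 371 that fell, and in the opposite direction for 4 and 8. The counts of calls depended on single libraries. They were 217 higher and 292 lower without DMSO replicate 1, 44 and 20 without DMSO replicate 2, 81 and 114 without DMSO replicate 3, 298 and 175, 185 and 107, and 169 and 85 without osimertinib DTP replicates 1, 2 and 3, and 1082 and 1123 without osimertinib DTP + AZD5153 replicate 3, which enters through the shared estimate of the spread. Without both libraries that had over 50% of their counts in cores they were 1137 and 1117 (17.4% and 17.1% of flanks, beside 14.9% and 11.99% of all regions). Calls over all regions moved as well, from 5.58% and 5.13% to 2.21% and 2.83% without DMSO replicate 1. They were 0.407% and 0.294% without DMSO replicate 2 and 0.812% and 1.13% without DMSO replicate 3. Without osimertinib DTP replicates 1, 2 and 3 they were 3.46% and 1.74%, 2.02% and 0.973%, and 1.85% and 0.903%. Without osimertinib DTP + AZD5153 replicate 3 they were 14.2% and 12.7%.

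No flank passed the test between osimertinib DTP + AZD5153 and osimertinib DTP. Among the flanks nearest to a change were those of AWAT2, a wax alcohol acyltransferase, of SLC47A2, a drug and proton antiporter, and of PHLDA1, which is induced by ERK signalling. edgeR called 0 higher and 0 lower, which was also 0% of all regions tested in each direction, with an unadjusted p under 0.05 at 367 flanks and at 7013 of all regions. DESeq2 called 0 higher and 3 lower, beside 16 and 59 of all 169637 regions. The median log2 fold change of the flanks was -0.00, and -0.17 when libraries were scaled by their totals without TMM, a scaling that moved the median of all regions from 0.06 to -0.09.

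The flank of AWAT2 (chrX:70047232-70047733) held 4.68, 2.09 and 3.12 CPM in osimertinib DTP and 0.200, 0.116 and 0.193 CPM in osimertinib DTP + AZD5153, a log2 difference of -4.19 ± 0.79 (edgeR adjusted p = 0.366). The groups did not overlap. At PHLDA1 (chr12:76029067-76029568, 2036 bp downstream of its annotated TSS) the osimertinib DTP libraries held 3.54, 1.11 and 4.53 CPM and those with AZD5153 17.5, 17.5 and 6.76 CPM, beside 11.6, 14.4 and 11.97 CPM in DMSO. PHLDA1 was thus lowest in osimertinib DTP. Replicates 1 and 2 of the combination lay above every DMSO library, and replicate 3 lay below every one. Its log2 difference between the treated groups was 2.17 ± 0.62 and was not called, and its fall in osimertinib DTP against DMSO was -2.03 ± 0.61 (edgeR adjusted p = 0.0416), a call that 7 of the single-library omissions ended, as did the replicate block (adjusted p = 0.0655). SLC47A2 (chr17:19720945-19721446) held 3.44, 3.76 and 2.01 CPM in osimertinib DTP and 11.9, 9.89 and 15.8 CPM with AZD5153, a log2 difference of 2.03 ± 0.55.

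Without osimertinib DTP replicate 2 and osimertinib DTP + AZD5153 replicate 3, a choice made after the values had been seen, 89 flanks rose and 137 fell between these groups (1.36% and 2.09%, beside 1.13% and 0.982% of all regions in the same fit). The flanks of AWAT2, PHLDA1 and SLC47A2 passed the edgeR test in that fit, with adjusted p of 0.0102 for AWAT2, 0.0155 for PHLDA1 and 0.0356 for SLC47A2. Leaving out osimertinib DTP + AZD5153 replicate 3 alone gave 1 flank higher and 7 lower, beside 103 and 95 of all 161758 regions tested.

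In osimertinib DTP + AZD5153, 693 flanks rose and 830 fell against DMSO, the same DMSO libraries that served the comparison above. ASB18, NPR3 and MAP2 again had the highest rises, joined by KSR2, a scaffold of the RAF, MEK and ERK kinases. Among the flanks lowered the most were those of PLA2G2F, of the long noncoding RNA gene LINC00354 and of AKR1D1, a steroid reductase of bile acid synthesis. The calls took in 10.6% and 12.7% of flanks, beside 9.05% and 9.01% of all regions and 5.32% and 3.18% of cores. The median log2 fold change was 0.05 in flanks, 0.42 in cores and 0.23 in all regions. The core median includes replicate 3 of the combination, whose counts lay more in cores. By library totals without TMM, 508 flanks rose and 954 fell (7.76% and 14.6%, beside 6.06% and 9.59% of all regions). The share of flank calls that were rises went from 45.5% to 34.7%. Over all regions the calls went from 14286 higher and 14232 lower to 9564 and 15152. The medians without TMM were -0.19 in flanks and -0.02 in all regions.

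The KSR2 flank (chr12:117679961-117680462) held 0.0907, 0.103 and 0.402 CPM in DMSO, then 9.27, 7.79 and 7.35 CPM in osimertinib DTP and 23.8, 22.0 and 3.87 CPM with AZD5153 added. Its log2 fold change over DMSO was 5.28 ± 0.84 without and 6.31 ± 0.86 with AZD5153 (edgeR adjusted p = 0.00337 and 0.00114). Replicate 3 of the combination was the lowest of its group at KSR2, and also at NPR3, with 46.1, 42.2 and 7.15 CPM, and at MAP2, with 15.5, 37.9 and 2.32 CPM. It was the lowest at 412 of the 693 flanks that rose (59.5%). The combination and DMSO did not overlap at 612 of the 693 flanks that rose and at all 830 that fell, beside 43.1% of all flanks. At ASB18 the combination held 22.9, 48.6 and 23.8 CPM.

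The 830 flanks that fell in the combination had median levels of 1.40, 1.40 and 1.16 CPM in its 3 libraries, against 6.71, 10.4 and 8.75 CPM in DMSO. Few reads were left there at PLA2G2F, LINC00354 and AKR1D1. The flank of PLA2G2F had no read in any of the 3 libraries against 206 counts in DMSO, which is at least 53.2-fold lower with the combined group set at a floor of 3 counts. That of LINC00354 (chr13:111902686-111903187) had 2 counts in all against 184 in DMSO, a DMSO level 71.3 times as high (95% interval 19.5 to 593, counting error only). AKR1D1 (chr7:138074397-138074898) held 3.81, 11.3 and 9.15 CPM in DMSO, 1.05, 0.835 and 1.01 CPM in osimertinib DTP and 0.1002, 0.233 and 0.193 CPM in the combination, with log2 fold changes of -3.04 ± 0.62 and -5.45 ± 0.77. The calls against DMSO in osimertinib DTP were lost without DMSO replicate 2 for LINC00354 (edgeR adjusted p = 0.274) and AKR1D1 (0.0719), and for LINC00354 also without DMSO replicate 3 or any 1 osimertinib DTP library (0.0746 to 0.143).

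Single libraries moved the counts of the combination against DMSO as well. They were 441 higher and 585 lower without DMSO replicate 1, 219 and 309 without DMSO replicate 2, 247 and 382 without DMSO replicate 3, 470 and 480 without replicate 1 of the combination and 1245 and 1420 without its replicate 3. Without both libraries that had over 50% of their counts in cores they were 1640 and 1581 (25.05% and 24.1% of flanks, beside 22.8% and 19.8% of all regions). Calls over all regions went from 9.05% and 9.01% to 4.68% and 5.90% without DMSO replicate 1. They were 2.40% and 2.76% without DMSO replicate 2 and 2.56% and 3.58% without DMSO replicate 3. Without replicates 1 and 3 of the combination they were 5.19% and 5.03%, and 18.4% and 17.3%. Of the flanks whose gene had a core, 332 of 558 that rose and 266 of 680 that fell had a core called the same way, and 13 and 21 had one called the opposite way.

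Whether acetylation spread into the flanks or drew back from them was read from the ratio of flank to core counts within a gene. In osimertinib DTP the ratio rose at 73 genes and fell at 63 of 3078 (2.37% and 2.05%, edgeR on flank and core sums of each library). The highest rises were at ATAD2, a bromodomain ATPase, CA14, a membrane carbonic anhydrase, the uncharacterised gene LOC105370401 and the zinc finger gene ZNF814. The ratio was lowered the most at WDPCP, a gene of ciliogenesis and planar cell polarity, MTMR14, a phosphoinositide phosphatase, TUBG2, a gamma-tubulin, and RASGEF1B, an exchange factor for Ras proteins. Flanks moved more than cores in most of these genes, 68 of 73 where the ratio rose and 55 of 63 where it fell. The flank and core changes had opposite signs in 22 of the 73 and in 50 of the 63. Over all 3078 genes the signs were the same in 71.5%. The median core change over all genes was 0.371 on the log2 scale, and flank changes were the wider. Choosing genes by their ratio favours larger flank changes and, where the ratio fell while cores tended to rise, opposite signs. These counts therefore cannot show how flanks and cores moved apart from that choice.

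The split between rises and falls depended on how flank and core columns were scaled. Each was scaled separately, so that the median change of the ratio over all genes was 0.10, and without that centring the median was -0.18 and 2 genes rose and 10 fell. With a block for the replicate number, which paired the libraries of these groups, 47 rose and 48 fell. The counts were 23 and 21 without DMSO replicate 1, 0 and 0 without DMSO replicate 2, DMSO replicate 3 or osimertinib DTP replicate 3, 30 and 25 and 25 and 19 without osimertinib DTP replicates 1 and 2, and 245 and 191 without osimertinib DTP + AZD5153 replicate 3. DESeq2 called 157 and 118. Without both libraries with over 50% of their counts in cores, 276 rose and 240 fell.

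**Figure D2:**
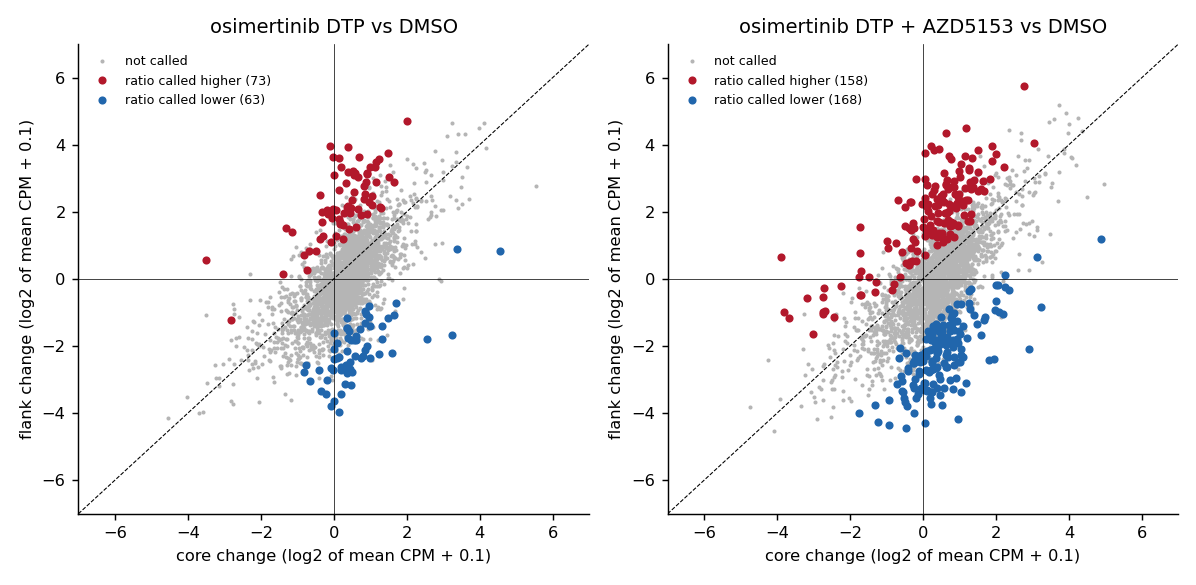
Change of the flanks of a gene (vertical axis) against change of its cores (horizontal axis), each as the log2 difference between group means of CPM + 0.1, for 3078 genes in osimertinib DTP (left) and osimertinib DTP + AZD5153 (right) against DMSO; the dashed line marks equal change. Genes with a ratio called higher (73 and 158, red) lie above the line and those called lower (63 and 168, blue) below it with the centred scaling, and without centring the calls were 2 higher and 10 lower on the left and 27 and 91 on the right.

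A flank and a core of 1 gene need not belong to the same start site. The annotation names a transcript for each region, and 3835 of the 5690 flanks (67.4%) were assigned to a transcript that also had a core. The median gap from a flank to the nearest core of its gene was 1316.5 bp, and the largest 607092 bp. Genes called for the ratio had distant flanks more often: 26.5% of all 3078 genes had no flank on a transcript with a core, but 27 of the 73 genes with a higher ratio (37.0%) and 34 of the 63 with a lower one (54.0%). When each flank was set against the cores of its own transcript, edgeR called 0 higher and 0 lower of 2261 genes in osimertinib DTP against DMSO, with an unadjusted p under 0.05 at 222 genes and a smallest adjusted p of 0.0617. DESeq2 called 24 and 22 in that set. With flanks up to 4 kb from a core of the gene, edgeR called 16 and 9 of 2662 genes. Both restrictions were added after the values had been seen.

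ATAD2 is a case where a single flank moved and the start-site core did not. Its flank, 2521 bp downstream of a TSS at chr8:123413328-123413829, had 14, 5 and 11 counts in DMSO and 126, 102 and 231 in osimertinib DTP, while the 2 cores together had 306, 467 and 362 against 257, 381 and 266. The ratio of flank to core counts was 0.0458, 0.0107 and 0.0304 in DMSO and 0.490, 0.268 and 0.868 in osimertinib DTP, a log2 change of 4.47 ± 0.61 (edgeR adjusted p = 0.00955). All 3 osimertinib DTP libraries lay above all 3 DMSO libraries. Against the core of its own transcript the change was 3.57 (adjusted p = 0.0617), and without DMSO replicate 2, DMSO replicate 3 or osimertinib DTP replicate 3 it was not called (0.062, 0.0577 and 0.0534).

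CA14 reached a higher ratio the other way, through its core. The core had 156, 315 and 243 counts in DMSO and 27, 8 and 23 in osimertinib DTP, while the flank, 6756 bp from it and at another TSS, had 64, 54 and 38 against 74, 70 and 59. The log2 change of the ratio was 4.28 ± 0.79 (edgeR adjusted p = 0.0159). DUSP6, a phosphatase that switches off ERK, had the same pattern, with cores at 236, 175 and 216 counts in DMSO, followed by 63, 35 and 14 in osimertinib DTP and 22, 18 and 25 in the combination. Its flanks had 386, 361 and 284 counts in DMSO, followed by 284, 535 and 101 in osimertinib DTP and 191, 92 and 279 in the combination, with wide overlap. The ratio of DUSP6 rose by 2.78 ± 0.74 in the combination against DMSO (adjusted p = 0.0358), was not called in osimertinib DTP (2.55 ± 0.74, 0.0839), and its call was lost when flanks were kept within 4 kb of a core (0.0597). The call was also lost without any 1 DMSO library (edgeR adjusted p = 0.0911 to 0.141), osimertinib DTP replicate 3 (0.0503) or replicate 1 of the combination (0.0779).

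Several of the other named ratios compared start sites far apart. At WDPCP the flank fell from 56, 109 and 108 counts to 30, 8 and 43 and the cores rose from 22, 25 and 17 to 133, 117 and 324, for a log2 change of the ratio of -4.73 ± 0.66, but 447772 bp lay between them. At MTMR14 the flank had 37, 39 and 50 counts in DMSO and 14, 5 and 13 in osimertinib DTP, and cores at an internal start 6587 bp away rose by 3.37 to 4.47 on the log2 scale. The ratio of MTMR14 changed by -4.17 ± 0.54. LOC105370401 had flanks at 43, 43 and 28 counts in DMSO and 519, 310 and 481 in osimertinib DTP, 50730 bp or more from its core, with a log2 change of the ratio of 3.91 ± 0.66. RASGEF1B had 15646 bp between flank and core and a change of -3.72 ± 0.85. These 4 genes leave the set when a flank must lie within 4 kb of a core.

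ZNF814 and TUBG2 had flanks nearer to a core, though on a transcript without one. The flanks of ZNF814 had 24, 18 and 13 counts in DMSO and 105, 275 and 371 in osimertinib DTP beside a core at 250, 289 and 235 against 190, 333 and 356. The log2 change of the ratio was 3.76 ± 0.52, and 3.73 with flanks within 4 kb of a core (edgeR adjusted p = 0.00955 and 0.0269). The flank of TUBG2 had 49, 88 and 59 counts against 7, 0 and 3, beside cores at 235, 346 and 287 against 218, 406 and 174. Its ratio changed by -3.82 ± 0.66, and by -3.98 within 4 kb (adjusted p = 0.0139 and 0.0269). How reads that map to several places were counted is not given in the sources used here, and both genes have close relatives in the genome. Without osimertinib DTP replicate 3 the adjusted p was 0.0534 for ZNF814 and 0.067 for TUBG2. Like the other 6 named ratios, ZNF814 was not called without DMSO replicate 2, DMSO replicate 3 or osimertinib DTP replicate 3, where no gene was. TUBG2 was not called without osimertinib DTP replicate 3. Without DMSO replicate 2 or DMSO replicate 3 its flank did not pass the filter on counts, and it was not tested.

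No ratio passed between osimertinib DTP + AZD5153 and osimertinib DTP. The genes with the smallest p were JAK3, a cytokine receptor kinase, and ATP8A1, a phospholipid flippase, in the direction of a higher ratio, and STAMBP, a deubiquitinase, and PCYT1A, the rate-limiting enzyme of phosphatidylcholine synthesis, in that of a lower one. edgeR called 0 and 0 of 3078 genes (0% in each direction), with an unadjusted p under 0.05 at 194. DESeq2 called 2 higher and 1 lower. Without both libraries with over 50% of their counts in cores, 31 rose and 25 fell. The log2 differences were 1.71 ± 0.36 at JAK3, 2.22 ± 0.49 at ATP8A1, -1.71 ± 0.37 at STAMBP and -1.91 ± 0.45 at PCYT1A, each with an adjusted p of 0.609.

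PCYT1A shows what the choice of core does. Its 2 flanks had 114, 195 and 143 counts in DMSO, followed by 48, 24 and 37 in osimertinib DTP and 12, 5 and 7 in the combination, and all its cores together stayed between 411 and 715 counts in every library. The ratio therefore fell by 3.51 ± 0.44 in the combination against DMSO (edgeR adjusted p = 0.00411). The flanks, however, were assigned to an internal start whose own core at chr3:196270128-196270629 went from 4.53, 6.92 and 5.53 CPM in DMSO to 2.01, 0.557 and 0.705 CPM in osimertinib DTP and 0.401, 0.233 and 0.387 CPM in the combination. Against that core the log2 change of the ratio was 0.46 (adjusted p = 0.767). Flank and core thus went down together at the internal start of PCYT1A, and the stronger core at the main start kept its level. STAMBP had a change of -2.18 ± 0.36 against DMSO over all its cores and of -0.60 (adjusted p = 0.625) on shared transcripts, and NPR3 of 3.21 ± 0.59 and 0.87 (0.616).

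In osimertinib DTP + AZD5153 against DMSO the ratio rose at 158 genes and fell at 168 (5.13% and 5.46%). The libraries of these groups did not overlap at 116 of the 158 and at all 168, beside 32.4% of all 3078 genes. CDC14A, a phosphatase of the cell cycle, joined CA14, LOC105370401 and ATAD2 among the highest, and CCDC126, WDPCP, TMEM117 and DMTN, an actin-bundling protein, were lowest. On shared transcripts 14 rose and 28 fell of 2261 genes (0.619% and 1.24%, DESeq2 84 and 77), and with flanks within 4 kb of a core 48 and 55. CCDC126 was called in each of these sets. Its flank, 1646 bp upstream of the start printed above (chr7:23595235-23595736), had 47, 145 and 90 counts in DMSO, followed by 31, 11 and 23 in osimertinib DTP and 3, 5 and 2 in the combination. Its cores, 1 of them over the printed window, had 150, 203 and 169, then 222, 410 and 185, then 219, 189 and 292. The ratio changed by -4.61 ± 0.58, and by -4.68 on the shared transcript (edgeR adjusted p = 0.00411 and 0.00996).

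ATAD2 also passed on the shared transcript, with a log2 change of the ratio of 3.14 (edgeR adjusted p = 0.0401). CDC14A had a change of 4.18 ± 0.58 with its flank 8083 bp from a core, TMEM117 of -3.93 ± 0.80 with 10621 bp between them and DMTN of -3.90 ± 0.73 with 5530 bp. TMEM117 was not called without DMSO replicate 2 (edgeR adjusted p = 0.0592), nor DMTN without DMSO replicate 2 (0.0565) or DMSO replicate 3 (0.0504).

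As above, the split rested on the centring, without which 27 rose and 91 fell. The median change of the ratio over all genes was 0.13 with and -0.33 without it. The counts were 74 and 88 without DMSO replicate 1, 34 and 40 without DMSO replicate 2, 41 and 37 without DMSO replicate 3, 84 and 99 and 78 and 102 without replicates 1 and 2 of the combination, and 356 and 384 without its replicate 3. Without both libraries with over 50% of their counts in cores they were 592 and 507. Across the 3078 genes the changes of flanks and cores had a Pearson coefficient of 0.65 in osimertinib DTP and 0.65 in the combination against DMSO, as a description over genes that share libraries and are not independent, and flank changes were the wider of the pair (SD 1.201 against 0.877 on the log2 scale in osimertinib DTP).

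Over whole libraries, no shift of signal between flanks and cores stood out from the spread between libraries. Flanks held 30.6%, 30.5% and 31.8% of the counts of flanks and cores together in the DMSO libraries, against 30.6%, 21.3% and 33.4% for osimertinib DTP and 31.5%, 31.5% and 19.8% for the combination, beside 38.1% in the input. The low values were those of the 2 libraries with over 50% of their counts in cores. Group means differed by -2.49 percentage points for osimertinib DTP against DMSO, by -0.870 for the combination against osimertinib DTP and by -3.36 for the combination against DMSO (two-sided exact permutation p = 0.9, 0.7 and 0.8, where 3 libraries against 3 cannot go below 0.1). Without those 2 libraries the first and the last difference turned to 1.06 and 0.536. The downstream share of flank counts differed by 0.223 to 0.641 percentage points between groups (exact permutation p = 0.5 to 0.8), and the share of flank counts at 2 to 3 kb by at most 0.502 (exact permutation p = 0.6 to 1).

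Peaks called by the authors in each library gave a second view of spreading. A flank was counted as joined to its core where 1 peak of a library touched both. The name of the deposited peak list of osimertinib DTP replicate 3 gives another cell line, H1875, than its labels, which were followed. Across promoter regions the −log10 p of the peaks in each of the 9 lists, taken relative to the mean of the lists, correlated best with the counts of the library of the same label (Pearson r = 0.623 to 0.853, and 0.787 for that list, as a description). Of 5690 flanks, 28.01%, 27.3% and 31.6% were joined in the DMSO libraries, against 32.1%, 32.5% and 36.0% for osimertinib DTP and 33.7%, 29.0% and 29.7% for the combination. Each osimertinib DTP library exceeded each DMSO library, by 4.55 percentage points on average (two-sided exact permutation p = 0.1, the smallest that 3 against 3 can give, adjusted p = 0.3 over 3 comparisons). Without osimertinib DTP replicate 3 the difference was 3.34 percentage points (exact permutation p = 0.2, the smallest that 3 against 2 can give). The separation depended on the rule of touching. With at least 50% of each region required in the peak, the groups overlapped. DMSO replicates 1 to 3 then stood at 25.3%, 24.0% and 29.0%, and those of osimertinib DTP at 29.3%, 28.6% and 33.2%. By touch, the combination differed by -2.72 from osimertinib DTP and by 1.82 from DMSO (exact permutation p = 0.3 and 0.5), and its range overlapped both. Only 213 flanks (3.74%) were joined in all 9 libraries, and 2130 (37.4%) were joined in none. There were 207 flanks joined in all 3 osimertinib DTP libraries and no DMSO library, and 157 of the reverse kind. The single flank of PHLDA1 was joined to its core in all DMSO libraries, in no osimertinib DTP library and in all libraries of the combination, and both flanks of AMOTL2 were joined in every treated library and 1 of them in a single DMSO library.

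**Figure D3:**
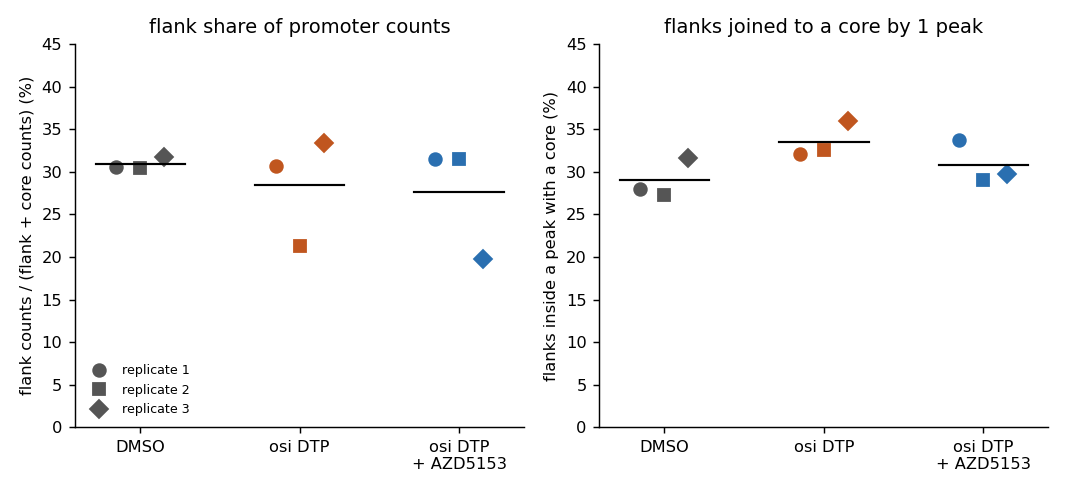
Share of flank counts in the sum of flank and core counts (left, %) and share of flanks that lie in 1 peak with a core of their gene (right, %) in each library; circles, squares and diamonds are replicates 1, 2 and 3, and bars are group means. On the left 7 libraries lie between 30.5% and 33.4% and 2 at 21.3% and 19.8%, and on the right the osimertinib DTP libraries lie at 32.1% to 36.0% and the DMSO libraries at 27.3% to 31.6%.

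Gene lists tied to the drugs were then read at their flanks. EGFR signals through MAPK to ERK, and the genes of the MAPK list are outputs and feedback inhibitors of that pathway. Of its 22 genes 11 had flanks, 22 in all, of which 0 rose and 6 fell in osimertinib DTP, where 6.90% of all flanks rose and 7.36% fell. The median log2 fold change of the list was -0.64 beside 0.04 over all flanks. Against DMSO the combination had 0 rises, 3 falls and a median of -0.10, beside 10.6%, 12.7% and 0.05 over all flanks, and against osimertinib DTP it had no call and a median of 0.52, beside -0.00. The lists were chosen with results of these data known and are a description.

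The falls in the MAPK list were in 3 flanks of FOSL1, an AP-1 subunit stabilised by ERK, in 2 of DUSP5, a nuclear ERK phosphatase, and in that of PHLDA1; FOSL1 and DUSP5 regions here were picked after their values had been seen. The FOSL1 flank at 1472 bp downstream held 17.4, 23.5 and 19.3 CPM in DMSO, 5.16, 5.71 and 4.23 CPM in osimertinib DTP and 8.22, 8.03 and 5.61 CPM in the combination. It fell by 2.00 on the log2 scale in osimertinib DTP (edgeR adjusted p = 0.0220), and its difference of -1.46 in the combination was not called (0.0554). The DUSP5 flank at 1277 bp upstream held 15.4, 24.1 and 18.6 CPM in DMSO, 5.26, 3.06 and 2.82 CPM in osimertinib DTP and 7.11, 4.30 and 1.35 CPM in the combination, with log2 fold changes of -2.37 and -2.16, both called. At both genes no treated library reached a DMSO library. The FOSL1 flank with the highest level, at 2764 bp upstream, held 31.0, 50.6 and 39.5 CPM in DMSO and 18.2, 30.2 and 18.3 CPM in osimertinib DTP and did not pass (-0.86 ± 0.49). Nor did the highest flanks of DUSP6 (0.41 ± 0.72), of EGR1, an immediate early factor (0.09 ± 0.62), or of SPRY2, a feedback inhibitor (0.87 ± 0.54).

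YAP and TAZ are coactivators that bind TEAD factors at enhancers and promoters. In that list 18 of 25 genes had flanks, 43 in all, of which 8 rose and 1 fell in osimertinib DTP and 12 rose and 1 fell in the combination against DMSO. Of all flanks 6.90% rose and 7.36% fell in osimertinib DTP and 10.6% and 12.7% in the combination. The medians of the list were 1.06 and 1.199, beside 0.04 and 0.05 over all flanks, and 0.37 with no call between the treated groups, beside -0.00. Among the flanks that rose were 2 of RBMS3, an RNA-binding protein, 2 of CCDC80, an extracellular matrix protein, and 1 each of ANKRD1, AMOTL2, CRIM1 and FJX1, and the one that fell was at NT5E, the ectonucleotidase CD73. Those of ANKRD1, CCDC80, FJX1 and NT5E were singled out after their values had been seen.

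The ANKRD1 flank, at 2841 bp downstream of the start of this textbook YAP target, held 0.998, 0.723 and 0.503 CPM in DMSO, 8.13, 5.71 and 7.35 CPM in osimertinib DTP and 20.9, 16.99 and 3.29 CPM in the combination. The log2 fold changes over DMSO were 3.22 ± 0.70 and 4.19 ± 0.72 (edgeR adjusted p = 0.00961 and 0.00189). The AMOTL2 flank at 1049 bp downstream, next to a core of this angiomotin gene, held 4.99, 1.24 and 4.73 CPM in DMSO, 12.3, 26.6 and 24.0 CPM in osimertinib DTP and 12.3, 14.8 and 47.2 CPM in the combination, with log2 fold changes of 2.51 and 2.75. At both genes DMSO stood below every treated library. At CRIM1, a regulator of growth factor release, the flank at 2992 bp downstream rose by 2.33 and 2.88, and the one with the higher level, at 1356 bp upstream, had differences of 1.30 ± 0.55 and 1.56 ± 0.55 that did not pass. The highest flanks of RBMS3 (0.58 ± 0.62), TGFB2 (0.88 ± 0.62) and AMOTL2 (1.06 ± 0.55) did not pass in osimertinib DTP. At NT5E, by contrast, the values were 2.63, 5.99 and 4.22 CPM in DMSO, 0.478, 0.417 and 0.604 CPM in osimertinib DTP and 0.701, 1.05 and 0 CPM in the combination (log2 fold change -3.05 and -2.75).

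**Figure D4:**
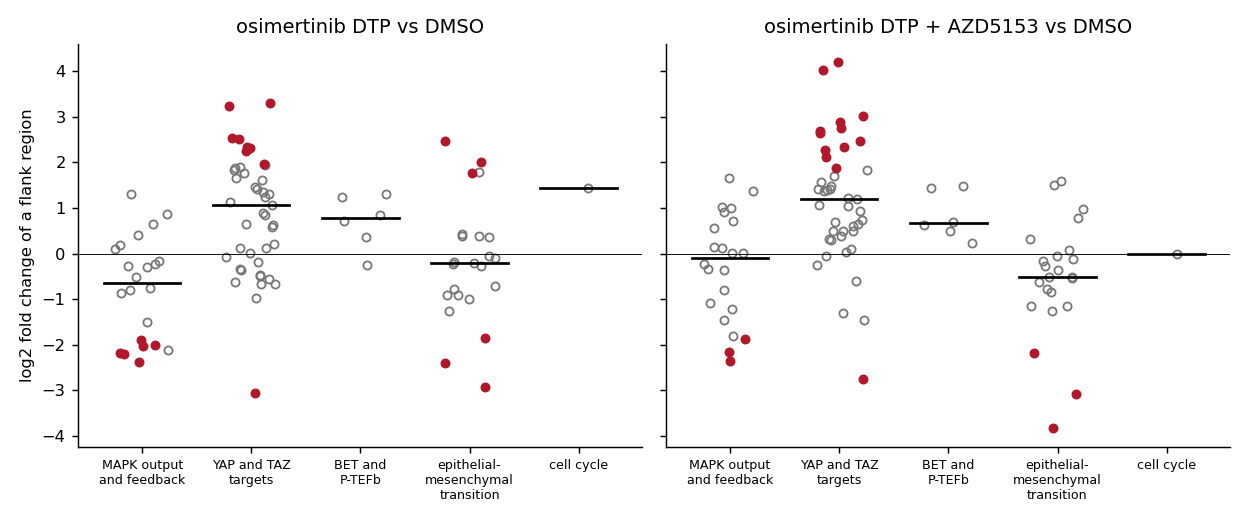
Log2 fold change against DMSO of each flank region of the genes in 5 lists, in osimertinib DTP (left) and osimertinib DTP + AZD5153 (right); red points passed the edgeR test, open points did not, and bars are medians. Called MAPK flanks lie below 0 (6 and 3), called YAP and TAZ flanks lie above 0 with 1 exception each (8 and 12), and the list of epithelial-mesenchymal transition has calls in both directions on the left and below 0 on the right.

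The list of epithelial-mesenchymal transition was mixed. It had flanks at 10 of 19 genes, 23 in all, with 3 rises and 3 falls in osimertinib DTP, none in either direction between the treated groups, and 0 rises and 3 falls in the combination against DMSO. Over all flanks 6.90% rose and 7.36% fell in osimertinib DTP, and 10.6% and 12.7% in the combination against DMSO. The list's medians were -0.21, -0.30 and -0.51, beside 0.04, -0.00 and 0.05 over all flanks. The falls were at the epithelial junction genes CDH1 and CLDN7, chosen after their values had been seen. The CDH1 flank at 1781 bp upstream held 9.43, 18.5 and 12.8 CPM in DMSO, 4.68, 3.34 and 3.22 CPM in osimertinib DTP and 3.11, 3.26 and 2.51 CPM in the combination, and fell by 1.85 and 2.18 on the log2 scale. The CLDN7 flank at 1970 bp upstream fell by 2.93 and 3.83. The highest flanks of CLDN4 (-0.27 ± 0.53), GRHL2 (-0.21 ± 0.69) and TGFBI (-0.998 ± 0.50) did not pass.

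Genes that BET inhibitors are known to act through had few flanks. In the list of BET proteins and controllers of the kinase P-TEFb, 4 of 13 genes had flanks, 6 in all, and none was called by edgeR in any comparison. HEXIM1, an inhibitor of P-TEFb and a marker of BET inhibitor exposure at the RNA level, held 18.1, 21.2 and 16.2 CPM in DMSO, 24.8, 43.4 and 23.3 CPM in osimertinib DTP and 25.6, 18.03 and 42.5 CPM in the combination in its flank at 1308 bp downstream. The log2 difference between the treated groups was -0.09 ± 0.51, with overlapping libraries. The flank of BRD3, a BET protein, had differences of 0.36 ± 0.54 in osimertinib DTP against DMSO and 0.13 ± 0.54 between the treated groups, and that of MEPCE, which caps the RNA that holds P-TEFb, -0.25 ± 0.78 and 0.48 ± 0.79. MYC had no flank.

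EGFR, the target of osimertinib, had 3 flanks. The one at 1089 bp upstream of an internal TSS (chr7:55108133-55108634) held 19.95, 24.0 and 15.99 CPM in DMSO, 6.88, 6.26 and 5.54 CPM in osimertinib DTP and 9.22, 4.54 and 2.32 CPM in the combination. Its log2 fold change was -1.68 ± 0.57 in osimertinib DTP, which did not pass (edgeR adjusted p = 0.0661), and -1.88 ± 0.58 in the combination, which did (0.0312) but was lost without any 1 DMSO library, osimertinib DTP replicate 1 or replicate 2 of the combination (0.0501 to 0.123). DMSO libraries lay above all treated libraries. The flank at 1340 bp downstream of the first TSS had differences of -0.66 ± 0.53 and -0.37 ± 0.53. Of the 25 genes of the cell cycle list only PLK1, a mitotic kinase, had a flank, at 2.90, 2.27 and 1.61 CPM in DMSO, 7.17, 8.07 and 3.12 CPM in osimertinib DTP and 1.80, 1.40 and 3.67 CPM in the combination. The PLK1 ratio rose by 2.90 ± 0.61 in osimertinib DTP (adjusted p = 0.0234) with its cores at 421, 443 and 407 counts in DMSO against 153, 206 and 126, although 10930 bp lay between flank and core and the call was lost without any 1 library of either group (0.0576 to 0.126).

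Most genes had a single flank (2002 of 3679), and 4 genes stood out by number. TNS3, a tensin of focal adhesions, had 13, the antisense RNA gene CYP1B1-AS1 had 11, and the DNA-binding protein gene AHDC1 and the mitotic kinase gene NEK6 had 10 each. Neighbouring flanks of 1 gene are not independent. At NEK6 all 10 log2 differences from DMSO were above 0 in both treated groups, 0.93 to 2.13 in osimertinib DTP with 1 call and 1.31 to 2.97 in the combination with 7 calls. The called flank in osimertinib DTP (chr9:124298079-124298580) was lost without DMSO replicate 2 or 3 or any 1 osimertinib DTP library (edgeR adjusted p = 0.0539 to 0.179). At TNS3 none was called in osimertinib DTP and 5 were in the combination against DMSO, and at CYP1B1-AS1 none and 4. AHDC1 had none and 1, a fall of 1.78. Without DMSO replicate 2, none of these calls at TNS3, CYP1B1-AS1 and AHDC1 was made, and of the 7 at NEK6 only that of the flank just named. Flanks of NEK6 inside a peak with a core numbered 6, 0 and 1 of 10 in the DMSO libraries, 8, 7 and 9 in osimertinib DTP and 9, 4 and 10 in the combination, so the range of the combination overlapped that of DMSO.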

How the data were processed

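H3K27ac ChIP-seq was measured in 9 libraries of H1975 cells (3 groups of 3) and in 1 pooled input. Per the labels the reads were aligned with BWA 0.7.17 to hg38, peaks were called with MACS2 2.2.6, reads were counted with featureCounts 2.0.0 and regions annotated with ChIPseeker 1.29.1, without parameters given. The deposited tables hold raw read counts per region, not normalized. The deposited peak lists, 1 per library, give a fold enrichment (a ratio) and −log10 p and q values, of which the peak positions were used and, in checks, the −log10 values. All H3K27ac libraries were sequenced to 6263443 to 10463351 counts over regions, and intervals cover counting error only.

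Members and gene lists were chosen with earlier results of these data known. Counts of all regions were fitted at once with edgeR 4.0.16 (TMM, a count filter at a minimum of 10, robust quasi-likelihood test, 157919 regions, Benjamini-Hochberg adjustment, threshold 0.05), in R 4.3.3. For the ratio, flank and core counts were summed per gene and library and fitted together in 18 columns with a term for the library, flank and core columns being scaled separately and genes kept with 10 counts in 3 libraries for each. A mean per group of CPM + 0.1 was used for flank and core changes. Shares per library were compared by two-sided exact permutation tests. DESeq2 1.42.0, other scalings and filters, and the leaving out of libraries were alternatives. The code was tested on simulated data.

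Same-numbered osimertinib DTP and DMSO libraries deviated together from their group means (correlation 0.36, 0.33 and 0.31 for replicates 1 to 3). All were above the limit of 0.1 set for pairing. The main fits do not use this pairing, and fits with a replicate block are given beside them. The combination did not reach that limit in every replicate with osimertinib DTP (0.29, -0.09 and -0.32) or with DMSO (0.00, 0.54 and 0.33). Its replicates 2 and 3 did exceed it with DMSO. Named flanks were, per comparison, the 4 highest and 4 lowest fold changes among those called with 30 or more counts in the higher group, or, with too few calls, the 2 of smallest p in each direction. Ratios were named likewise. Added to these were the 4 genes with most flanks, up to 4 genes per list by flank level, and EGFR, MYC and HEXIM1. A repeat counted under each. Regions outside this rule are said to have been chosen after their values were seen. Some genes that the rule names are not reported here.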

Additional observations from a re-analysis of the deposited data

How the results depend on the processing

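The counts of calls depended on the libraries and the fit. Of 324 refitted values of counts and shares per comparison, 211 were rated the same, 101 counts moved and 12 differences of shares changed sign. Many single flanks and ratios were named for their change in these same libraries, so their steady sign is no support for a direction. Of 1527 refitted values of single named flanks and ratios, 1236 kept their side of the threshold and direction, 272 lost the call, 13 gained one and 6 changed sign. The 6 were all of the PCYT1A ratio, at 0.69, 0.73 and 0.71 in osimertinib DTP against DMSO and at 0.46, 0.55 and 0.50 in osimertinib DTP + AZD5153 against DMSO with flanks of a transcript that has a core, flanks within 4 kb of a core, and the first set by DESeq2. The cause of the changes below was not tested.

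For flanks higher and lower in osimertinib DTP against DMSO, beside 452 and 482, the counts were 1100 and 1043 with only the libraries of both groups, 1137 and 1117 without both libraries with over 50% of their counts in cores, 119 and 109 at an adjusted p under 0.01, and 861 lower by DESeq2. Leaving out 1 library gave 44 to 1082 and 20 to 1123, beside 0.407% to 14.2% and 0.294% to 12.7% of all regions. Between the treated groups, beside 0 and 0, they were 89 and 137 without both libraries, 3 lower by DESeq2, and 0 to 1 and 0 to 7 with 1 library left out. In the combination against DMSO, beside 693 and 830, they were 1640 and 1581 without both libraries, 291 and 334 at an adjusted p under 0.01, 504 lower with only the libraries of both groups, and 219 to 1245 and 309 to 1420 with 1 library left out.

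For the ratio in osimertinib DTP against DMSO, beside 73 and 63, the counts were 157 and 118 by DESeq2, 2 and 10 with no centring, 38 and 38 with flanks at 1 to 2 kb only, 276 and 240 without both libraries, 0 and 0 on shared transcripts (24 and 22 by DESeq2), 16 and 9 within 4 kb, 5 and 4 at an adjusted p under 0.01, and 0 to 245 and 0 to 191 with 1 library left out. Between the treated groups they were 2 and 1 by DESeq2 and 31 and 25 without both libraries. In the combination against DMSO, beside 158 and 168, they were 268 and 253 by DESeq2, 27 and 91 with no centring, 100 higher with flanks at 1 to 2 kb only, 592 and 507 without both libraries, 14 and 28 on shared transcripts (84 and 77 by DESeq2), 48 and 55 within 4 kb, 37 and 39 at an adjusted p under 0.01, and 34 to 356 and 37 to 384 with 1 library left out.

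With a replicate block, which uses the pairing of osimertinib DTP with DMSO, flank counts were 448 and 472, 0 and 0, and 649 and 885 in the 3 comparisons, and ratio counts 47 and 48, 0 and 0, and 135 and 153. Of the named calls it ended 4 of 47 for flanks and 5 of 30 for ratios.

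The flank share turned from -2.49 to 1.06 and from -3.36 to 0.536 percentage points without both libraries, and with 1 library left out it ran from -4.94 to 1.06, from -4.42 to 3.03 and from -5.32 to 0.536 in the 3 comparisons. The downstream share in osimertinib DTP against DMSO was -0.410 in genes with flanks on both sides and -0.271 to 0.692 with 1 library left out, and between the treated groups it was -0.438 without both libraries and -0.0919 to 1.07 with 1 left out. Depth limits what low flanks can show, since flanks had a median of 64.7 counts per DMSO library.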
